A study of Mus musculus with 6 samples.

Results

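The genes that encode the cartilage collagens were followed by mRNA sequencing in articular cartilage from young and aged mice. The 7 genes were Col2a1 (the chain of collagen II), Col9a1, Col9a2 and Col9a3 (the chains of collagen IX), Col10a1 (the chain of collagen X), and Col11a1 and Col11a2 (chains of collagen XI). They were taken by gene name from a table of 33971 genes, and each name matched a single row. All 7 were expressed in young cartilage, and all 7 were called lower in aged cartilage, where 21.3% of the 20397 genes tested were called lower. The fall ran from 10.5-fold for Col11a2 to 1141-fold for Col9a1.

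Collagens II, IX and XI build the heterotypic fibril of hyaline cartilage. Collagen II forms the bulk of the fibril, collagen XI lies inside it and takes part in starting the fibril and limiting its width, and collagen IX is bound along the surface, where it links the fibril to other fibrils and to the surrounding matrix. Collagen X is a short-chain, network-forming collagen that is best known as the product of hypertrophic chondrocytes, the enlarged cells of the growth plate and of the deep, calcified layer of articular cartilage.

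The libraries came from articular cartilage of wildtype (WT) mice, 3 from 2-month-old ("young") and 3 from 18-month-old ("aged") animals, with no treatment given in the labels. The study asked how cartilage changes with age, and its methods describe male mice without tying a library to an animal, so the p-values measure the spread between these libraries, which may be partly technical. Levels are given as FPKM (fragments scaled by gene length and by library size), which may be compared between genes, and tests were run on the deposited counts. Between 48171507 and 59085179 counts were assigned per library.

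The libraries differed in more than these genes. A list of 12 chondrocyte markers that holds none of the 7 collagens summed to between 10353 and 19771 FPKM in the young and between 491 and 2124 FPKM in the aged libraries, and 1 to 3 of its genes were at 0 counts in each aged library, Epyc among them. Neutrophil markers summed to between 8.32 and 3492 FPKM in young and between 40746 and 45311 FPKM in aged libraries, and erythroid markers to between 288 and 7375 FPKM and between 30003 and 39809 FPKM. All 12 chondrocyte markers were called lower, beside 21.3% of all genes tested. Of the neutrophil markers 0 of 9 were called higher, and of the erythroid markers 3 of 8, beside 14.9% of all genes tested. Young replicate 2 stood apart from the other young libraries with 3492 FPKM of neutrophil markers, 833 FPKM of S100a8 among them, and 1420 FPKM of Col1a1, the bone and tendon collagen, where the other young libraries had at most 55.4, 15.5 and 60.0 FPKM. Aged replicate 1 stood apart with 4.28 times the chondrocyte marker level of the other aged libraries. Xist, which is transcribed from the inactive X chromosome, was between 89.5 and 101 FPKM in the young libraries and at most 0.0261 FPKM in the aged, whereas the Y-linked Ddx3y had at most 10 counts in the young and between 4333 and 4839 in the aged libraries. The young libraries thus carried a female pattern of these transcripts and the aged libraries a male one, although the methods describe male mice. Age, this division by sex-linked transcripts and the blood cell transcripts cannot be told apart in this design, and their part in the results below was not tested.

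The stretch of 250 bases before the start of the gene is shown for 4 of the genes because it covers the collagen genes with the deepest and the shallowest fall (Col9a1 and Col11a2), the partner of the latter (Col11a1) and the gene of hypertrophic cells (Col10a1). Promoters are from RefSeq (GRCm38.p6), in which 5 of the 7 genes had an entry, and are written 5′ to 3′ on the plus strand, on which all 4 genes lie. They span chr1:24177360-24177609 for Col9a1, chr10:34389731-34389980 for Col10a1, chr3:114030290-114030539 for Col11a1 and chr17:34038888-34039137 for Col11a2. Capitals mark matches to 5 motifs searched on both strands without overlap between them: TATAAA (the TATA box), ACAAAG (the core site of SOX and TCF factors), ACAAT (a shorter SOX core), TGTGGT (the RUNX core) and GGGCGG (the GC box, which reads CCGCCC where it lies on the other strand).
Col9a1: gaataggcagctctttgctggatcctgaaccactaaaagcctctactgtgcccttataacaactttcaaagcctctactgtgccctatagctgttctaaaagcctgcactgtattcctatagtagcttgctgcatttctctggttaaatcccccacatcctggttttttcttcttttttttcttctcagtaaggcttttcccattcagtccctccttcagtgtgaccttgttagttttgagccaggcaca
Col10a1: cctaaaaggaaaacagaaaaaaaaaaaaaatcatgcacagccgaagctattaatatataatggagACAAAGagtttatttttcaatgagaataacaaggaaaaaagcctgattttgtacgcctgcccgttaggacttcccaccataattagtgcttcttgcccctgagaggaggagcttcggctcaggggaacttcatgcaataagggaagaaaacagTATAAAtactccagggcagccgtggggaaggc
Col11a1: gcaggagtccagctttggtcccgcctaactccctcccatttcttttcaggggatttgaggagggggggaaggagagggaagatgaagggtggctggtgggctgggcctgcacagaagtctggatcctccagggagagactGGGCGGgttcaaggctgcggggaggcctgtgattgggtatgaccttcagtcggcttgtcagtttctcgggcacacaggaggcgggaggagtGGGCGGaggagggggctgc
Col11a2: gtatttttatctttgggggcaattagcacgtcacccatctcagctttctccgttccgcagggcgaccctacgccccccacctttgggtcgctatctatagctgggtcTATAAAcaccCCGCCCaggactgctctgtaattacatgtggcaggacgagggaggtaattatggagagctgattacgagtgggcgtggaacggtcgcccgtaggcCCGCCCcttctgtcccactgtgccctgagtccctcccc
The 4 stretches have little in common. Col10a1 carries TATAAA from 32 to 27 bases before its start, a match that 12.4% of 32851 promoters of this length hold somewhere, and ACAAAG from 185 to 180 bases before it, which 16.5% hold. Col11a1 and Col11a2 each carry 2 GC boxes, a motif found in 32.7% of promoters, and have a GC content of 62.4% and 57.6% beside a median of 52.4%. Col11a2 also holds TATAAA, from 143 to 138 bases before the RefSeq start, which lies upstream of the start in the GENCODE annotation. Col9a1 holds none of the 5 motifs and not a single CG pair in the stretch shown, with a GC content of 43.6%. RefSeq gives it a second start, not shown, whose stretch (chr1:24194953-24195202) holds none of them either and has a GC content of 56%. The shorter SOX core and the RUNX core, held by 27.7% and 14% of all promoters, were not found in these 4 windows. A match describes letters only, and no match says nothing about whether a factor acts there.

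Col2a1 was the most abundant of the 7 genes by mean FPKM in young cartilage, although it lay below Col10a1 in young replicates 1 and 3. The gene (ENSMUSG00000022483) lies at chr15:97975602-98004695 on the minus strand (GRCm38, as are all positions here) with 54 exons in its longest annotated form. Its FPKM in young replicates 1, 2 and 3 was 1411, 3359 and 1845, and in aged replicates 1, 2 and 3 it was 21.2, 12.8 and 12.9. Young replicate 2 was the highest library, and the lowest young value was 66.5 times the highest aged value. Col2a1 ranked 4th to 21st of all genes by FPKM in the young libraries and 2303rd to 3603rd in the aged. The mean was 2205 ± 1022 FPKM (SD, n = 3) in young and 15.6 ± 4.84 FPKM (SD, n = 3) in aged cartilage. In edgeR's quasi-likelihood test its log2 fold change was -7.20 (SE 0.60, adjusted p = 0.00114), a level 147-fold lower. In bulk tissue, fewer chondrocytes and less RNA per chondrocyte cannot be told apart.

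**Figure D1:**
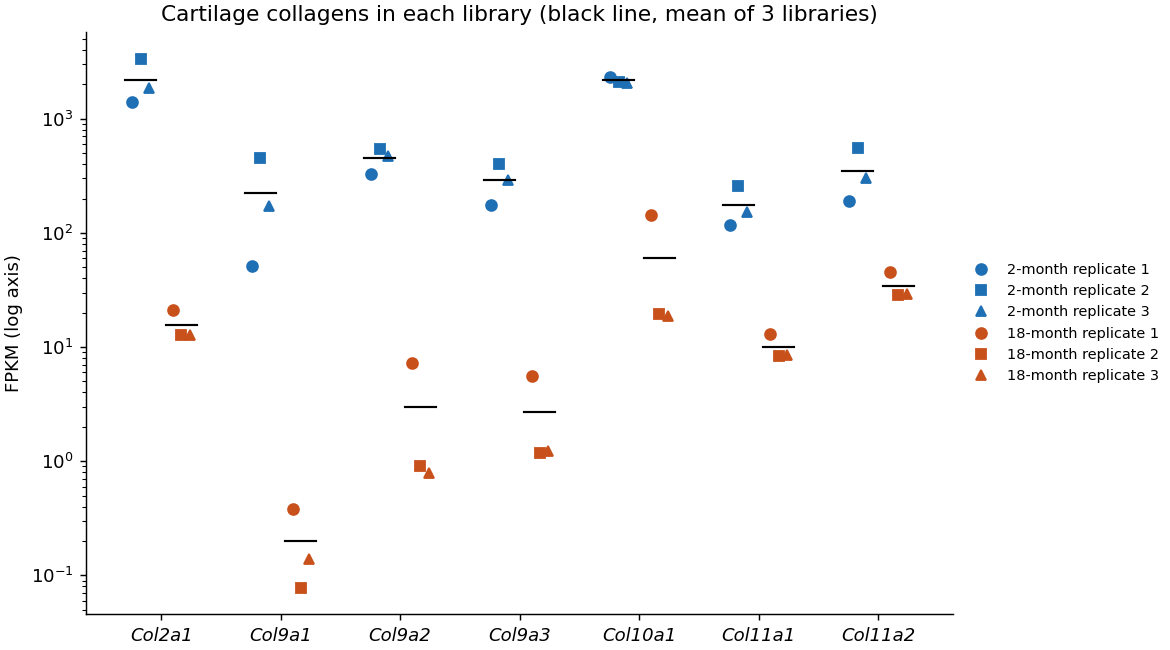
FPKM of each collagen gene on a log axis in the 3 young (2-month, blue) and the 3 aged (18-month, orange) libraries, with a marker shape for each replicate and a black line at the group mean. For each of the 7 genes all aged points lie below all young points, with the widest gap for Col9a1 and the narrowest for Col11a2, and aged replicate 1 (circle) is the highest aged point of every gene.

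The genes of collagen IX fell with Col2a1 or further. Its molecule is a trimer of the products of Col9a1, Col9a2 and Col9a3, and the first of these showed the deepest fall of all 7 genes. Col9a1 (ENSMUSG00000026147, chr1:24177610-24252684, plus strand, 38 exons) was at 51.8, 451 and 174 FPKM in young replicates 1, 2 and 3 and at 0.385, 0.0782 and 0.139 FPKM in aged replicates 1, 2 and 3. The aged values rest on 133, 25 and 46 counts, so they are the least precise of the set, yet they lie far below the 14421 to 133828 counts of the young libraries. Its log2 fold change was -10.16 (SE 1.28, edgeR adjusted p = 0.00244), the 28th deepest fall of 20397 genes tested. Without young replicate 2 it was -9.23, and without aged replicate 1 it was -11.00.

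Col9a2 was the most abundant collagen IX gene of young cartilage. It lies at chr4:121039385-121055322 on the plus strand (ENSMUSG00000028626, 32 exons). It was at 326, 548.5 and 471 FPKM in young replicates 1, 2 and 3 and at 7.30, 0.910 and 0.784 FPKM in aged replicates 1, 2 and 3. The young libraries lay close together, whereas aged replicate 1 stood 8.62 times above the mean of the other aged libraries. The log2 fold change was -7.32 (SE 1.17, edgeR adjusted p = 0.00465), and it deepened to -9.08 when aged replicate 1 was left out. Col9a3 (ENSMUSG00000027570, chr2:180597790-180622189, plus strand, 33 exons) was at 175, 404 and 289 FPKM in young replicates 1, 2 and 3 and at 5.61, 1.19 and 1.23 FPKM in aged replicates 1, 2 and 3. Again aged replicate 1 was the highest aged library, and the groups did not overlap. Its log2 fold change was -6.83 (SE 0.87, edgeR adjusted p = 0.00255), and -7.93 without aged replicate 1. The 3′ end of Col9a3 shares 234 exonic bases with the opposite-strand gene Tcfl5, and the counting is not stated to use strand. Tcfl5 had 375 to 650 counts in the young libraries beside 37088 to 91099 of Col9a3, and 0 to 75 in the aged beside 289 to 1456.

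Col11a1 and Col11a2 kept more of their transcript level than Col2a1 and the collagen IX genes. Col11a1 (ENSMUSG00000027966, chr3:114030540-114220718, plus strand, 67 exons) was at 118, 257 and 154 FPKM in young replicates 1, 2 and 3 and at 13.02, 8.35 and 8.59 FPKM in aged replicates 1, 2 and 3. The lowest young library was 9.07 times the highest aged one. Its log2 fold change was -4.20 (SE 0.37, edgeR adjusted p = 0.00122), or 18.4-fold lower. Col11a2 (ENSMUSG00000024330, chr17:34039437-34066685, plus strand, 66 exons) was at 192, 554 and 300.2 FPKM in young replicates 1, 2 and 3 and at 45.9, 28.5 and 29.3 FPKM in aged replicates 1, 2 and 3. Here the lowest young library was 4.19 times the highest aged one, the narrowest gap of the 7 genes. Its log2 fold change was -3.39 (SE 0.44, edgeR adjusted p = 0.0027), or 10.5-fold lower, and it ranked 1185th among the falls.

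Col10a1 differed from the fibril collagens in its spread among the young libraries, but not from the collagen IX genes among the aged. The gene (ENSMUSG00000039462, chr10:34389981-34397085, plus strand, 3 exons) is the only one of the 4 with a printed promoter that holds TATAAA close to its start. It was at 2322, 2098 and 2077 FPKM in young replicates 1, 2 and 3 and at 142, 19.6 and 18.7 FPKM in aged replicates 1, 2 and 3. Young replicate 2, which was the highest young library for each of the other 6 genes, lay at 0.954 times the mean of the other young libraries for Col10a1, and the young values varied by 6.28% (coefficient of variation) against 25.2% to 90.8% for the others. In aged cartilage Col10a1 spread widely. Aged replicate 1 was 7.44 times the mean of the other aged libraries, and the coefficient of variation was 118%, exceeded only by Col9a2 at 124%. The collagen IX genes shared this, with aged replicate 1 at 8.62 (Col9a2), 4.64 (Col9a3) and 3.54 (Col9a1) times that mean. For Col2a1, Col11a1 and Col11a2 it was at 1.65, 1.54 and 1.58 times. The mean fell from 2166 ± 136 FPKM (SD, n = 3) to 60.1 ± 71.1 FPKM (SD, n = 3). Its log2 fold change was -5.28 (SE 1.01, edgeR adjusted p = 0.0081), the highest adjusted p of the 7, and -6.88 without aged replicate 1. Col10a1 lies wholly within Nt5dc1 on the opposite strand, sharing 18 exonic bases, and Nt5dc1 had between 966 and 2211 counts per library against 3727 to 399346 of Col10a1. With no strand stated for the counting, reads from the overlap could fall to either gene.

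All 7 collagen genes were thus called lower in aged cartilage (adjusted p under 0.05 and log2 fold change under -1), where 21.3% of the 20397 genes tested were called lower, 14.9% higher and 36.3% in either direction. For all 7, every aged library lay below every young library, which held for 32.8% of the genes tested. Over all genes tested the median log2 fold change was -0.02. All 7 passed the filter on low counts, and the calls stood when any 1 library was left out, with adjusted p-values of at most 0.0283 in edgeR. Young replicate 2 and aged replicate 1 moved the values but not the calls. Over tested genes whose FPKM averaged 1 or more, the median ratio of young replicate 2 to the other young libraries was 1.10, and that of aged replicate 1 to the other aged libraries was 1.07. The 5th and 95th percentiles were 0.590 and 11.8 for young replicate 2, and 0.698 and 2.03 for aged replicate 1.

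**Figure D2:**
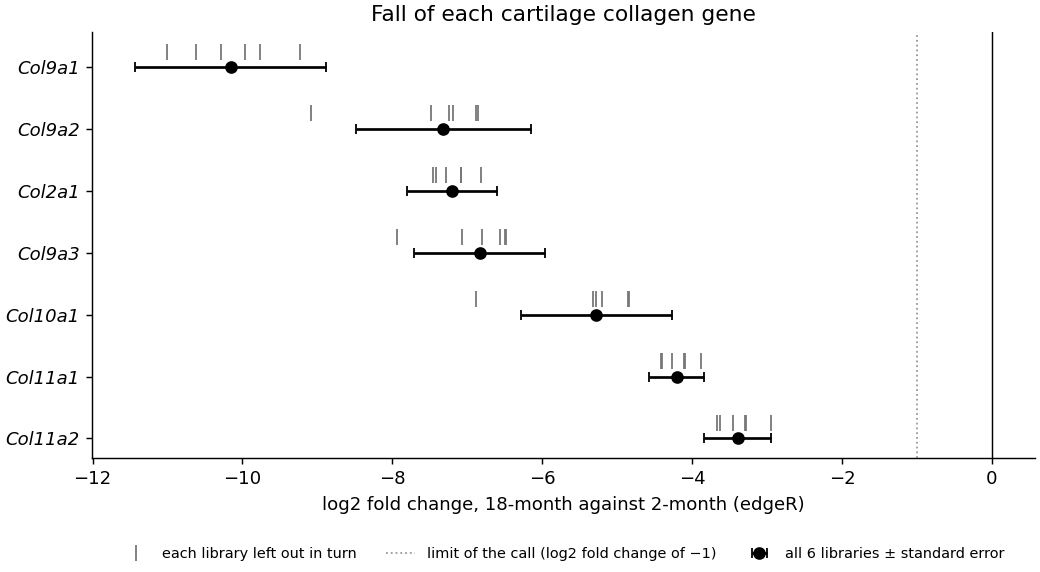
Log2 fold change of each collagen gene, aged (18-month) against young (2-month), from edgeR with all 6 libraries (black points, bars of 1 standard error) and with each library left out in turn (grey ticks). The values run from -10.16 for Col9a1 to -3.39 for Col11a2, and all ticks lie left of the dotted line at -1. The farthest left tick is the fit without aged replicate 1 for every gene except Col11a2, where it is the fit without young replicate 1.

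Together the 7 genes took 2.85% of all counts in young replicate 1 (95% Wilson interval 2.85% to 2.86%), 5.69% in replicate 2 (5.68% to 5.69%) and 3.62% in replicate 3 (3.61% to 3.62%). In aged cartilage they took 0.133% in replicate 1 (0.132% to 0.134%), 0.0558% in replicate 2 (0.0552% to 0.0565%) and 0.0568% in replicate 3 (0.0562% to 0.0575%). These intervals cover counting error only. The share of the aged libraries was thus well below that of any young library. Among the aged it was highest in replicate 1, which had the most chondrocyte marker transcript. Among the young it was highest in replicate 2, which had the least, at 10353 FPKM against 19613 and 19771 in replicates 1 and 3. A link between this share and the marker level was not tested.

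The order of the levels changed with age. In young cartilage the mean FPKM placed Col2a1 and Col10a1 first, with overlapping ranges, followed apart from them by Col9a2, and then Col11a2, Col9a3, Col9a1 and Col11a1, each overlapping its neighbour. In aged cartilage the mean FPKM placed Col10a1 and Col11a2 first with overlapping ranges, then Col2a1 and Col11a1. Col9a2 and Col9a3 came next, and Col9a1 was last, below and apart from Col9a3. The first place of Col10a1 rested on aged replicate 1, at 142 FPKM. In aged replicates 2 and 3 Col10a1 was at 19.6 and 18.7 FPKM, below Col11a2 at 28.5 and 29.3 FPKM. Its range also overlapped that of Col2a1, although it lay above Col2a1 in each aged library. Col11a2 lay above Col2a1 in all 3 aged libraries and below it in all 3 young ones. The order of Col2a1 and Col10a1 in young cartilage depended on the gene length used and, by FPKM, on the library. The ratio of Col10a1 to Col2a1 was 1.65, 0.625 and 1.13 in young replicates 1, 2 and 3 by FPKM, which follows the union of all exons (9243 bases for Col2a1 and 3130 for Col10a1), and 0.909, 0.345 and 0.622 with the longest coding transcript (5104 bases for Col2a1).

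**Figure D3:**
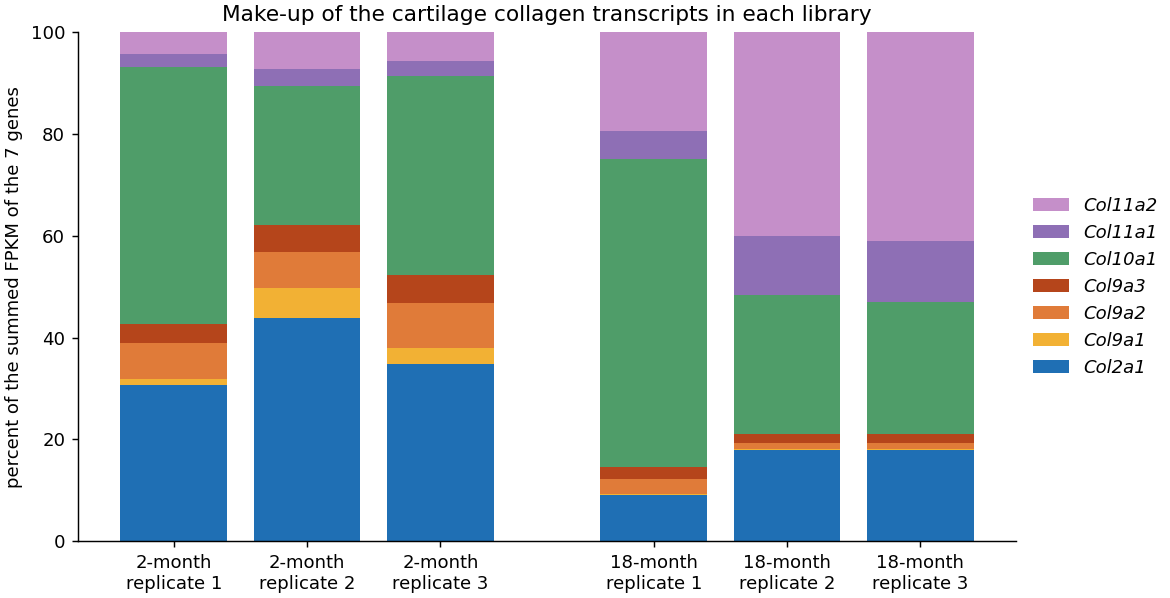
Stacked bars of the percent that each collagen gene takes of the summed FPKM of the 7 genes, 1 bar per library. Col2a1 falls from between 30.7% and 43.8% in the young to between 9.01% and 18.0% in the aged libraries, Col11a2 rises from between 4.18% and 7.23% to between 19.5% and 41.0%, and Col10a1 takes 60.4% of aged replicate 1 against 27.4% and 26.1% of the other aged libraries.

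Ratios within a library, which do not depend on the scaling between libraries, were used to ask whether the genes fell to different extents. Col11a2 was at 0.136, 0.165 and 0.163 times the FPKM of Col2a1 in young replicates 1, 2 and 3 and at 2.16, 2.23 and 2.28 times in aged replicates 1, 2 and 3. Col11a1 was at 0.0837, 0.0764 and 0.0834 times Col2a1 in the young and at 0.614, 0.653 and 0.667 times in the aged libraries. Both ratios were close together within each age, including in the libraries that stood apart, and did not overlap between ages. The log2 ratio to Col2a1 differed between ages by 3.85 for Col11a2 and by 2.99 for Col11a1, each with p = 0.1 in a two-sided exact permutation test. With 3 libraries against 3, this is the smallest p the design allows, and it was 0.2 after Benjamini-Hochberg adjustment over the 6 ratios, so neither passed.

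The other genes showed wider ratios. Col9a1 was at 0.0367, 0.134 and 0.0941 times Col2a1 in young replicates 1, 2 and 3 and at 0.0181, 0.00611 and 0.0108 times in aged replicates 1, 2 and 3, which did not overlap. The log2 ratio in aged minus young libraries was -2.87 (exact permutation p = 0.1, adjusted 0.2). The ratios of Col9a2, Col9a3 and Col10a1 overlapped between ages, with log2 differences of -0.90, 0.0019 and 1.23 and exact permutation p of 0.4, 1 and 0.3. For these 3 genes aged replicate 1 had the highest ratio of all 6 libraries. Without it the differences were -1.69, -0.49 and 0.50.

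**Figure D4:**
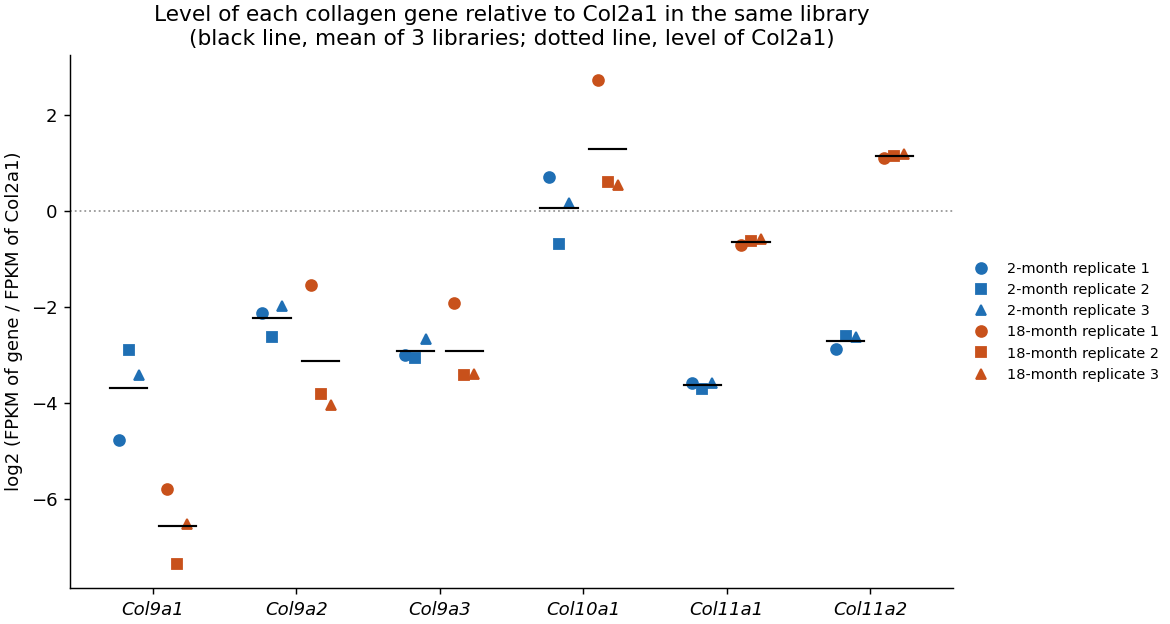
Log2 ratio of the FPKM of each other collagen gene to that of Col2a1 in the same library, young (2-month, blue) and aged (18-month, orange), with the mean of 3 libraries as a black line and the level of Col2a1 as a dotted line. Col11a1 and Col11a2 move up between ages by 2.99 and 3.85 with little spread, Col9a1 moves down (-2.87), and aged replicate 1 (circle) stands above the other aged points of Col9a2, Col9a3 and Col10a1.

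Chains that assemble into the same molecule were compared in the same way. The ratio of Col11a2 to Col11a1 was 1.63, 2.16 and 1.95 in young replicates 1, 2 and 3 and 3.52, 3.42 and 3.42 in aged replicates 1, 2 and 3, a log2 difference of 0.86 with no overlap (exact permutation p = 0.1, 0.15 after adjustment over 3 ratios). The ratio of Col9a3 to Col9a1 was 3.38, 0.895 and 1.67 in the young and 14.6, 15.2 and 8.86 in the aged libraries, a log2 difference of 2.87 (exact permutation p = 0.1, adjusted 0.15). The ratio of Col9a2 to Col9a1 was 6.30, 1.22 and 2.71 in the young and 19.0, 11.6 and 5.64 in the aged libraries, which overlapped (log2 difference 1.97, exact permutation p = 0.2, adjusted 0.2). In each pair the first gene kept more of its level than its partner, by differences that did not pass the test at this number of libraries.

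The collagen genes were also set beside the chondrocyte markers of the same library. Relative to the summed FPKM of the 12 markers, the log2 ratio in aged minus young cartilage was -2.78 for Col2a1, -5.65 for Col9a1, -3.68 for Col9a2, -2.78 for Col9a3 and -1.56 for Col10a1, each without overlap (exact permutation p = 0.1, adjusted 0.14 over 7 ratios). For Col11a1 and Col11a2 the differences were 0.21 and 1.07, with overlapping groups (exact permutation p = 0.9 and 0.2). This comparison rested on Cytl1, which encodes a small secreted protein of chondrocytes and took 32.8% to 57.8% of the marker sum in young and 87.9% to 90.9% in aged libraries. Without it the differences were -0.44 for Col2a1, -3.31 for Col9a1, -1.34 for Col9a2 and -0.44 for Col9a3, and they were positive for Col10a1 at 0.79, Col11a1 at 2.55 and Col11a2 at 3.41. Without it Col2a1 and Col9a3 overlapped between ages (exact permutation p = 0.6 and 0.5), whereas Col11a1 and Col11a2 no longer did (exact permutation p = 0.1, adjusted 0.14). In both versions Col9a1 lay lowest and Col11a2 highest, and the direction for Col10a1 turned.

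The libraries that stood apart did so in different genes. In young replicate 2, Col9a1 was 4.01 times, Col11a2 2.25 times, Col2a1 2.06 times and Col11a1 1.89 times the mean of the other young libraries, while Acan, the core protein of aggrecan, was at 0.712 times and the chondrocyte markers at 0.526 times that mean, or 0.802 times without Cytl1. The summed osteoblast and osteocyte markers were at 1.81 times, the summed osteoclast markers at 9.40 times and Col1a1 at 31.8 times in the same library. Genes of the osteoblast and osteocyte list differed there. Ibsp, its most abundant gene, was at 1621 FPKM against 1360 and 1484 in young replicates 1 and 3. Phex was at 24.8 FPKM against 2.45 and 2.03, and Sost at 60.3 FPKM against 72.9 and 70.9. In aged replicate 1, Acan was at 8.66 times the mean of the other aged libraries, near Col9a2 at 8.62 and Col10a1 at 7.44 times. Col2a1, Col11a1 and Col11a2 were at 1.65, 1.54 and 1.58 times, while osteoblast and osteocyte markers and Col1a1 were at 1.04 and 1.01 times. Aged replicates 2 and 3 lay closest together of all pairs, with the 7 genes at 0.869 to 1.82 times each other's share of counts. When they were summed into 1 sample all 7 collagen genes were still called lower.

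Genes that act around the collagens were taken in 5 lists, in which calls were lower or absent and none was higher. The counts of these lists stand beside 21.3% of all genes tested called lower and 14.9% called higher. Transcriptional regulators of chondrocyte genes were called lower in 8 of 8 tested (9 listed), with a median log2 fold change of -2.55. Sox6, named after its values were seen, lay at the limit of the call, with a log2 fold change of -1.001 (edgeR adjusted p = 0.00461). Under most alternatives that used all libraries, DESeq2 and median-of-ratios factors among them, 7 were called lower. Only limma on log2(TPM + 0.1) and the fit with aged replicates 2 and 3 summed kept 8. Sox9, the regulator that binds the enhancers of Col2a1, Col9a1 and Col11a2, was at 52.5, 40.6 and 53.1 FPKM in young replicates 1, 2 and 3 and at 3.25, 0.588 and 0.565 FPKM in aged replicates 1, 2 and 3, a log2 fold change of -5.16 (SE 0.85, edgeR adjusted p = 0.00511). Its aged replicate 1 was 5.65 times the mean of the other aged libraries, and without that library the log2 fold change was -6.46. Sox5, its partner on those enhancers, had a log2 fold change of -4.05 (SE 0.78, edgeR adjusted p = 0.00821), and -5.30 without aged replicate 1. Runx2, a regulator of Col10a1 in hypertrophic cells that was picked after its values were seen, was at 19.2, 22.7 and 19.2 FPKM in the young and at 5.82, 5.23 and 5.41 FPKM in the aged libraries, with a log2 fold change of -1.97 (SE 0.10, edgeR adjusted p = 0.000706).

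Of 27 genes that modify, secrete, trim and cross-link procollagen, 20 were called lower and none higher, with a median log2 fold change of -2.89. Pcolce2, an enhancer of the removal of the C-terminal propeptide, was at 74.2, 75.4 and 78.1 FPKM in young replicates 1, 2 and 3 and at 1.27, 0.251 and 0.310 FPKM in aged replicates 1, 2 and 3 (log2 fold change -7.06, SE 0.80, edgeR adjusted p = 0.00191), and without aged replicate 1 the log2 fold change was -8.13. Loxl4, a lysyl oxidase-like enzyme of collagen cross-linking, was at 299, 177 and 225 FPKM in the young and at 2.99, 1.74 and 1.76 FPKM in the aged libraries (log2 fold change -6.85, SE 0.41, edgeR adjusted p = 0.000749). The 7 genes not called had log2 fold changes between -1.23 and 0.06. Of the 5 listed proteinases that trim the propeptides, named after their values were seen, Adamts2, Adamts14 and Bmp1 were not called, whereas Adamts3 and Tll1 were called lower, with log2 fold changes of -3.08 and -4.20 (edgeR adjusted p = 0.00165 and 0.0397).

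Fibril partners, the matrix proteins and proteoglycans found with these fibrils, were called lower in 17 of 18, with a median log2 fold change of -5.70. Several of these genes, Acan, Matn1 and Epyc among them, were also in the list of chondrocyte markers, as was Sox9 of the regulators. The lists are thus not separate from the markers. Epyc, a small leucine-rich proteoglycan of cartilage, had 772, 5232 and 2787 counts in young replicates 1, 2 and 3 and 0 counts in each aged library, at least 1101-fold lower against a floor of 3 counts per library. Matn1, a matrilin that binds cartilage fibrils, was at 500 FPKM in young replicate 1, 128 in replicate 2 and 421 in replicate 3, and had 13, 5 and 0 counts in the aged libraries (edgeR log2 fold change -12.98, adjusted p = 0.00176, and -14.12 without aged replicate 1). With Epyc at its bound the median of the list was the same. Cilp was the single gene of this list not called and is named for that reason, at 683, 220 and 730 FPKM in the young and 262, 35.1 and 37.4 FPKM in the aged libraries.

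Collagen receptors and collagenases moved less uniformly, with 5 of 13 called lower, none higher and a median log2 fold change of -0.84. Of all genes tested, 21.3% were called lower. Itga10, the integrin chain that binds collagen II on chondrocytes, was at 114, 92.6 and 131 FPKM in young replicates 1, 2 and 3 and at 15.0, 6.18 and 6.54 FPKM in aged replicates 1, 2 and 3 (log2 fold change -3.71, SE 0.43, edgeR adjusted p = 0.002). Ddr1, a receptor tyrosine kinase for collagen, had a log2 fold change of -2.43 (SE 0.18, edgeR adjusted p = 0.000931). Mmp13, the main collagenase for collagen II, was picked after its values were seen and was at 470, 799 and 418 FPKM in the young and at 142, 240 and 235 FPKM in the aged libraries (log2 fold change -1.50, SE 0.34, edgeR adjusted p = 0.0135). Mmp8, the collagenase of neutrophils and one of the neutrophil markers, was picked in the same way and was at 0.0261, 31.6 and 0.493 FPKM in the young and at 267, 245 and 234 FPKM in the aged libraries, a log2 fold change of 4.55 that did not pass the test (SE 2.14, edgeR adjusted p = 0.122). Tested against a fold change of 2 rather than against no change, 3 of the 13 were called lower, beside 2667 of all 20397 genes tested.

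Other fibrillar and fibril-associated collagens were called lower in 9 of 13 and higher in none, with a median log2 fold change of -2.13. Col3a1, a fibrillar collagen of many soft tissues, was at 34.4, 67.1 and 60.1 FPKM in young replicates 1, 2 and 3 and at 5.41, 1.33 and 1.46 FPKM in aged replicates 1, 2 and 3 (log2 fold change -4.38, SE 0.68, edgeR adjusted p = 0.00436), and without aged replicate 1 the log2 fold change was -5.31. Col16a1, a fibril-associated collagen, had a log2 fold change of -4.37 (SE 0.55, edgeR adjusted p = 0.00249), and -5.01 without aged replicate 1. Col1a1, also named after its values were seen, was not called, at 29.3, 1420 and 60.0 FPKM in the young and 285, 279 and 286 FPKM in the aged libraries, with young replicate 2 far above and the other young libraries below the aged ones.

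**Figure D5:**
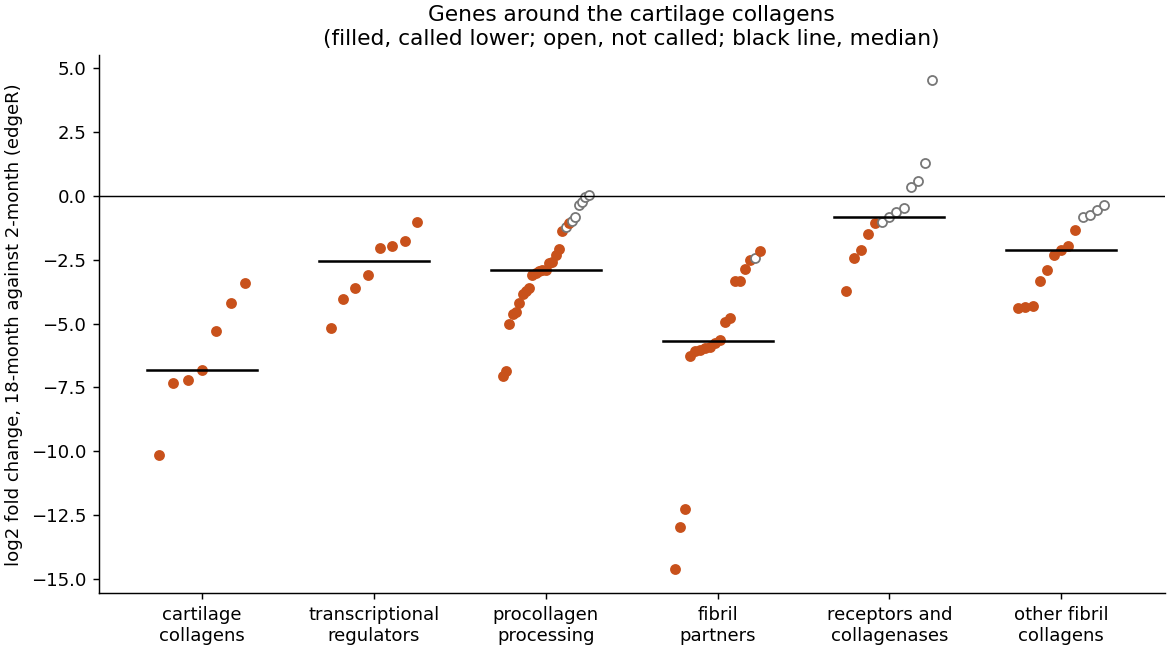
Log2 fold change (edgeR, aged against young) of every tested gene of 6 groups, with filled points called lower, open points not called and a black line at the group median. The medians are -6.83 for the cartilage collagens, -2.55 for the transcriptional regulators, -2.89 for procollagen processing, -5.70 for the fibril partners, -0.84 for receptors and collagenases and -2.13 for the other fibril collagens, beside -0.02 for all genes tested, and the fitted value of the lowest point, Epyc, depends on the prior count because it had 0 counts in every aged library.

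Genes with a pattern across the 6 libraries most like the mean of the 7 collagens were sought among 13873 genes whose FPKM averaged 1 or more, by Euclidean distance between centred log2 counts scaled to library size. The nearest was Fmod (fibromodulin, a proteoglycan that binds collagen fibrils) at a distance of 0.75, followed by Unc5c at 0.81, Chadl at 0.85, Fxyd2 at 0.87 and Efcab1 at 0.98. Fmod was at 285, 402 and 355 FPKM in young replicates 1, 2 and 3 and at 9.02, 3.42 and 3.81 FPKM in aged replicates 1, 2 and 3. The collagen genes themselves lay at 0.86 (Col9a3) to 4.41 (Col9a1) from their own mean, so several other genes followed it more closely than most of them. The nearest to Col10a1 alone, of 13879 genes, were Wscd2 at 0.57, Sox9 at 0.58 and Fzd2 at 0.61, which share the high aged replicate 1 and the lack of a high young replicate 2. These likenesses describe 6 libraries and were not tested.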

How the data were processed

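RNA of articular cartilage was sequenced by the authors as poly(A)-selected, strand-marked (dUTP) libraries with unique molecular identifiers, read from both ends. The submitters' processing notes name cutadapt 1.9, HISAT2 2.0.4, UMI-tools, StringTie 1.3.4d, DESeq2 and edgeR. The build, the annotation and the strand setting of the counting are not given in the sources used here, but the positions of the 7 genes were identical in GENCODE M21 (GRCm38). The deposited table held whole-number counts per gene, not normalized, and FPKM values, which the authors scaled by gene length and library. FPKM followed count per base of the exon union, up to 1 factor per library. Of the columns with values per library, 0 were left unmapped; columns of the authors' own fold changes and p-values were not used.

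The counts went into edgeR 4.0.16 under R 4.3.3 (TMM, filterByExpr, quasi-likelihood test, no replicate block), with Benjamini-Hochberg adjustment over the 20397 genes tested. A gene was called at an adjusted p under 0.05 and an absolute log2 fold change over 1, and the SE was the log2 fold change over the square root of F. The scripts were tested on simulated data. Ratios of FPKM were compared by two-sided exact permutation tests in scipy 1.17.1. Named genes were all 7 collagens, the 2 deepest called falls and the 2 largest called rises of each list (mean FPKM of at least 1; none rose), the 5 genes nearest to the collagens and the 3 nearest to Col10a1, with the sex-linked Xist and Ddx3y, Acan and S100a8 for the libraries. Runx2, Sox6, Adamts2, Adamts3, Adamts14, Bmp1, Tll1, Cilp, Mmp8, Mmp13, Col1a1, Cytl1, Ibsp, Phex and Sost were named outside this rule after their values were seen, and Tcfl5 and Nt5dc1 because they overlap a collagen gene. The 7 genes, the lists and the markers were chosen with earlier results of these data known.

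Alternatives were median-of-ratios factors, library totals, scaling without the 100 most abundant genes, no filter, DESeq2 1.42.0, limma 3.58.1 on log2(FPKM + 0.1), log2(FPKM + 1) and log2(TPM + 0.1), a test against a fold change of 2, a replicate block and each library left out. Chosen after seeing the data were aged replicates 2 and 3 summed, the markers without Cytl1 and the length of the longest transcript. Samples with the same replicate number did not deviate together.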

Additional observations from a re-analysis of the deposited data

How the results depend on the processing

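All 7 collagen genes stayed called lower under the 11 alternatives that used all libraries and in the 6 fits that left out 1, with log2 fold changes of the same sign throughout. The lowest and highest values over the fits that left out 1 library were -7.46 and -6.81 for Col2a1, -11.00 and -9.23 for Col9a1, -9.08 and -6.86 for Col9a2, -7.93 and -6.48 for Col9a3, -6.88 and -4.85 for Col10a1, -4.41 and -3.87 for Col11a1, and -3.67 and -2.94 for Col11a2. A pseudocount of 1 moved Col9a1 to -7.08. With limma, rescaling FPKM to TPM moved the median of all genes from 0.07 to -0.33, Col10a1 from -5.85 to -6.29 and Col11a2, the smallest fall, from -3.23 to -3.67. Over all genes, 7401 were called (58.8% of them lower), against 4033 when tested against a fold change of 2, and the lower share was 42.2% with log2(FPKM + 1). Without young replicate 2 it was 47.8%.

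Of the lists, receptors and collagenases gave 3 rather than 5 lower calls when tested against a fold change of 2. The other lists kept counts of 7 to 8 (regulators), 17 to 22 (procollagen processing), 16 to 18 (fibril partners) and 7 to 10 (other collagens). The ratio of Col10a1 to the chondrocyte markers turned to 0.79 without Cytl1. With 1 library left out, the log2 difference of Col9a3 over Col2a1 ran from -0.49 to 0.26 and that of Col11a1 over the markers from -0.20 to 0.83. Leaving out the 100 most abundant genes, among them Col2a1, Col10a1, Col11a1 and Col11a2, took the mean share of the collagens to 0.575% in young and 0.00294% in aged cartilage, by construction.

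The replicate numbers did not pair the libraries: deviations of same-numbered libraries correlated at 0.034, 0.044 and -0.024. With the replicate number as a block all 7 genes were called lower, with log2 fold changes of -7.17 for Col2a1, -10.04 for Col9a1, -8.18 for Col9a2, -7.23 for Col9a3, -5.99 for Col10a1, -4.17 for Col11a1 and -3.32 for Col11a2, and adjusted p of at most 0.0193 in edgeR. With 3 libraries per age, ratios could not reach a p under 0.1, and the aged values of Col9a1 rest on 25 to 133 counts.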
